A study of Homo sapiens with 6 samples.

Results

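The ABC transporters are membrane proteins that split ATP to move drugs, lipids, peptides, metals and metabolites across membranes, and they were followed here in SK-OV3 cells after a transfection with siRNA against the long non-coding RNA PVT1. Members were the rows of the count table whose symbol is ABC, a letter from A to G for the subfamily, and a number, which gave 46 of the 59653 genes in the table. A group of them, ABCB1, ABCC1 to ABCC5 and ABCG2, pumps drugs and drug conjugates out of cells and is described apart, as is the lipid pair of ABCA1 and ABCG1, which hands cholesterol to lipoproteins. Another kind of member, ABCE1 and the ABCF proteins, carries the ATP-binding domains without a membrane part and acts at the ribosome.

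Drug pumps of the family lower the amount of a drug inside a tumour cell, and ABCB1, ABCC1 and ABCG2 are the members best known for multidrug resistance, in ovarian cancer as elsewhere. The ABCC pumps export glutathione, glucuronide and sulfate conjugates, so they act after conjugating enzymes. ABCA1 and ABCG1 are standard target genes of the liver X receptors, nuclear receptors that are activated by oxidised cholesterol and bind DNA together with a retinoid X receptor.

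RNA came from SK-OV3 cells, an established human ovarian cancer line, 48 h after transfection with a pool of siRNAs to PVT1 (siPVT1) or a pool of non-targeting siRNAs (siControl), each at 50 nM. There were 3 libraries per group, and all share the transfection and the 1 cell line. Each group received 1 pool, so the lowering of PVT1 and any other action of the pool cannot be told apart. The labels do not say that the libraries of a group came from separate cultures, so p-values measure the spread between these libraries, which may be technical.

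Values are normalized counts, that is the estimated counts of the authors divided by a scaling factor for each library, and groups of 3 numbers are replicates 1, 2 and 3 in that order. The scaling is TMM, which assumes that most genes do not change, and scaling by the total count instead moved the median log2 fold change over the genes tested from 0.0014 to −0.15. Each gene was compared with edgeR's quasi-likelihood test, from which all adjusted p-values here come, with Benjamini-Hochberg adjustment over the 19008 genes with 5 or more normalized counts in 3 or more libraries. A gene was called where its adjusted p was under 0.05 and it differed by 1 or more on the log2 scale in either direction. Standard errors (SE) are on that scale, and a log2 fold change above 0 means higher in siPVT1.

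PVT1 itself stood at 3289, 4079.7 and 3368 normalized counts in the siControl libraries and at 2344, 2105 and 2057 in the siPVT1 libraries. Every siPVT1 library lay under every siControl library, and PVT1 was lower by a log2 fold change of −0.72 (SE 0.097, adjusted p = 0.000342), which is under the fold threshold. The total count ranged from 28383171 to 35059576 per library. Replicates differed by more than sampling noise, and chi-square over its degrees of freedom was 1.75 to 5.67 between siControl libraries, 8.62 between siPVT1 replicates 1 and 2, 45.3 between replicates 1 and 3 and 19.6 between replicates 2 and 3. The siPVT1 replicate 3 library thus stood apart, and the counts of called members and the values of some genes are also given without it. Summed over the libraries, all 9 epithelial and ovarian markers examined were detected, PAX8 and the keratins KRT7, KRT8 and KRT18 among them. CDH1 was at 0 in siPVT1 replicate 3, and MUC16 had 199, 633 and 17.8 normalized counts in the siPVT1 libraries. Of 4 blood markers, 2 were at 0, CD3E among them. CD14 was the 1 blood marker tested and was called as lower at under 10 normalized counts, and WT1 was the 1 epithelial marker called, also lower, and both calls were lost under some alternatives. PAX8 was higher just under the fold threshold (log2 fold change 0.9995, adjusted p = 3.33e-05). It was called with either siControl replicate 3 or siPVT1 replicate 3 left out. KRT8 (0.32) and KRT18 (0.37) were higher and KRT7 (−0.51) and ERBB2 (−0.43) lower, with adjusted p under 0.05 and under the fold threshold. The summed epithelial level went from 26832 to 30137 in siControl to 32148 to 34844 in siPVT1. Of 4 stromal and endothelial markers, COL1A1, PECAM1 and VWF rose and DCN had at most 1 count, and the summed level went from 167 to 184 in siControl to 844 to 925 in siPVT1. In bulk RNA a change in the share of cells of a type and a change in RNA per cell cannot be told apart. The part of these markers in the results was not tested.

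Of the 46 members, 36 had enough counts to be tested. In siPVT1, 5 rose (ABCG1, ABCB4, ABCC6, ABCG4 and ABCA7), 9 fell (ABCC12, ABCA12, ABCA9, ABCC2, ABCC9, ABCF2, ABCA13, ABCE1 and ABCG2) and 22 were not called. Over all genes tested 21.5% were called, 11.8% as higher and 9.64% as lower, against 38.9% of the tested members, 13.9% as higher and 25% as lower. The counts were 4 higher and 11 lower without siPVT1 replicate 3, with ABCG4 too low to be tested and ABCA10 and ABCB10 added. ABCA6, ABCA9, ABCC12 and ABCG4 reached 5 normalized counts in the libraries of 1 group only, so the filter kept them because that group was high. Of the other 32 tested members, 4 rose and 7 fell. ABCA12 and ABCC6, counted among these, also met the filter only through the group in which they were high. The median log2 fold change was −0.14 over the 36 and 0.0014 over all genes tested.

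The adjusted p alone was under 0.05 for 11 members as higher and 14 as lower, which is 69.4% of those tested against 57.9% of all genes (29.5% higher and 28.4% lower). The 3 siPVT1 libraries lay wholly to one side of the 3 siControl libraries for 28 of the 36 tested members, 11 above and 17 below. Over all genes tested 65.6% did so (33.2% above and 32.3% below). For ABCA6, ABCA9, ABCC12 and ABCG4 the count filter fixed this in advance. Of the other 32 tested members, 24 did so, 10 above and 14 below. In siControl the family took 0.143% to 0.146% of all counts of a library, and in siPVT1 0.124% to 0.134%. The most negative log2 fold changes belonged to members of few counts, ABCC12, ABCA9 and ABCA12.

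**Figure D1:**
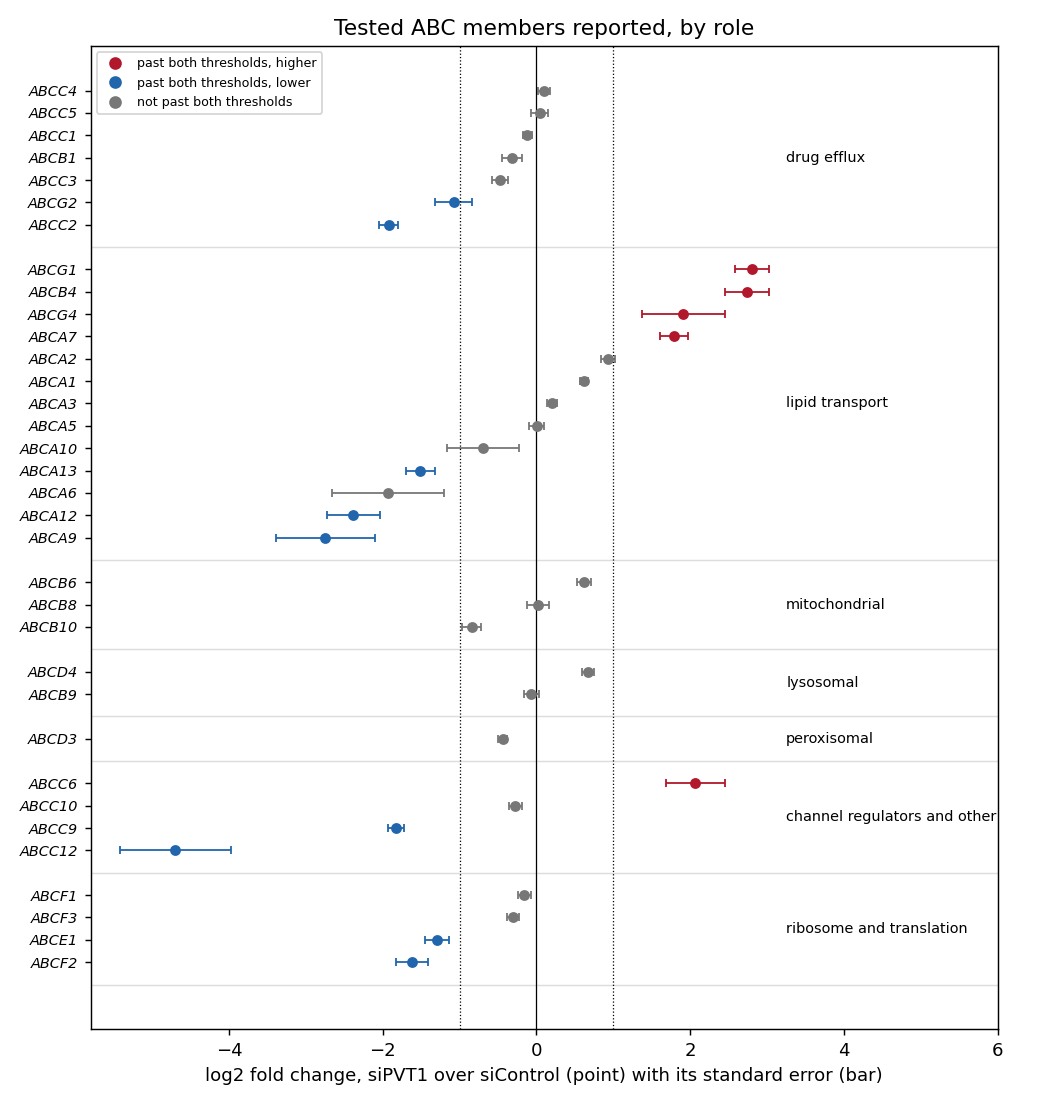
Log2 fold change of siPVT1 over siControl for the tested ABC members reported here, grouped by role on the vertical axis, with bars for the standard error from edgeR and colours for members called higher, called lower or not called. Called members range from −4.70 for ABCC12 to 2.81 for ABCG1, and the mitochondrial, lysosomal and peroxisomal groups hold none.

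All 7 drug efflux members were tested. ABCC2 and ABCG2 fell, and none rose, which makes 28.6% called, near the 21.5% of all genes tested. The median log2 fold change of the 7 was −0.32. ABCC3 was lower with an adjusted p under 0.05 and a fold under the threshold, while ABCB1, ABCC1, ABCC4 and ABCC5 had adjusted p-values of 0.05 or more. The most abundant pump, ABCC1, had a log2 fold change of −0.12.

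ABCC2 encodes MRP2, the pump of the apical membrane that exports conjugated bilirubin and drug conjugates such as those of platinum compounds. The gene lies at chr10:99782640-99852594, plus strand (GRCh38, GENCODE v44). Its normalized counts were 390.4, 466 and 392 in the siControl libraries and 95.5, 116 and 117 in the siPVT1 libraries. The siControl libraries were all at least 3 times as high as any siPVT1 library and did not overlap with them. The log2 fold change was −1.92 (SE 0.124, adjusted p = 8.39e-06), 3.80-fold lower. It passed both thresholds under every alternative run, between −2.08 and −1.83.

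ABCG2, the breast cancer resistance protein, exports urate, topotecan and mitoxantrone, and lies at chr4:88090150-88231628, minus strand. It had normalized counts of 114, 134 and 182 in the siControl libraries and 53.3, 61.0 and 88.1 in the siPVT1 libraries. The highest siPVT1 library, replicate 3, stayed under the lowest siControl library, but siControl replicate 3 was well above its 2 companions. ABCG2 fell, with a log2 fold change of −1.08 (SE 0.239, adjusted p = 0.00502). Without siControl replicate 3 the value was −0.88 and without siPVT1 replicate 1 it was −0.95, both under the fold threshold with adjusted p under 0.05 (0.0215 and 0.013), and without siPVT1 replicate 3 it was −1.34. In a test against a 2-fold change ABCG2 was not called.

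ABCC3 encodes MRP3, a pump of the basolateral membrane for glucuronides and bile salts. Its normalized counts were 1149, 1099 and 1105 in the siControl libraries and 926, 792 and 691 in the siPVT1 libraries. All siPVT1 libraries were under all siControl libraries, with siPVT1 replicate 3 the lowest of the 6 here, and the log2 fold change was −0.48 (SE 0.106, adjusted p = 0.00486).

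ABCB1 encodes P-glycoprotein, which exports anthracyclines, taxanes and vinca alkaloids, and lies at chr7:87503017-87713323, minus strand. Its normalized counts were low in this line, 124, 149 and 138 in the siControl libraries and 99.96, 114 and 115 in the siPVT1 libraries. The groups did not overlap, and the difference of −0.32 (SE 0.129) had an adjusted p of 0.0654 in edgeR's test. Without siPVT1 replicate 3 the values were −0.37 and 0.0493, and with total-count scaling the adjusted p was also under 0.05. The neighbouring paralog ABCB4, 22.6 kb away on the same strand, was higher in siPVT1, and because Salmon divides reads between similar transcripts by estimation, the values of such a pair are uncertain. Summed, the counts of ABCB1 and ABCB4 gave a log2 fold change of 0.89 (adjusted p = 0.000973).

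ABCC1 encodes MRP1, which exports glutathione conjugates and, with glutathione, anthracyclines. ABCC1 had normalized counts of 4766, 4834 and 4763 in the siControl libraries and 4227, 4301 and 4706 in the siPVT1 libraries. The groups did not overlap, yet siPVT1 replicate 3 was close to the siControl level, and the log2 fold change of −0.12 (SE 0.061) had an adjusted p of 0.131. Leaving out that library gave −0.18 and an adjusted p of 0.00494, and total-count scaling gave −0.27 and 0.00539.

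ABCC4 and ABCC5 encode MRP4 and MRP5, pumps of cyclic nucleotides and of nucleotide analogue drugs. ABCC4 had normalized counts of 2563, 2367 and 2483 in the siControl libraries and 2440.1, 2552 and 2950.1 in the siPVT1 libraries, which overlap. The log2 fold change was 0.10 (SE 0.082, adjusted p = 0.328). ABCC5 had normalized counts of 2482, 2412 and 2346 in the siControl libraries and 2158, 2364 and 2941 in the siPVT1 libraries, which overlap too, for a log2 fold change of 0.04 (SE 0.109, adjusted p = 0.750). In both genes siPVT1 replicate 3 was the highest library. Without it the log2 fold changes were −0.0014 for ABCC4 and −0.11 for ABCC5, and total-count scaling gave −0.05 and −0.11, so neither sign was stable.

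**Figure D2:**
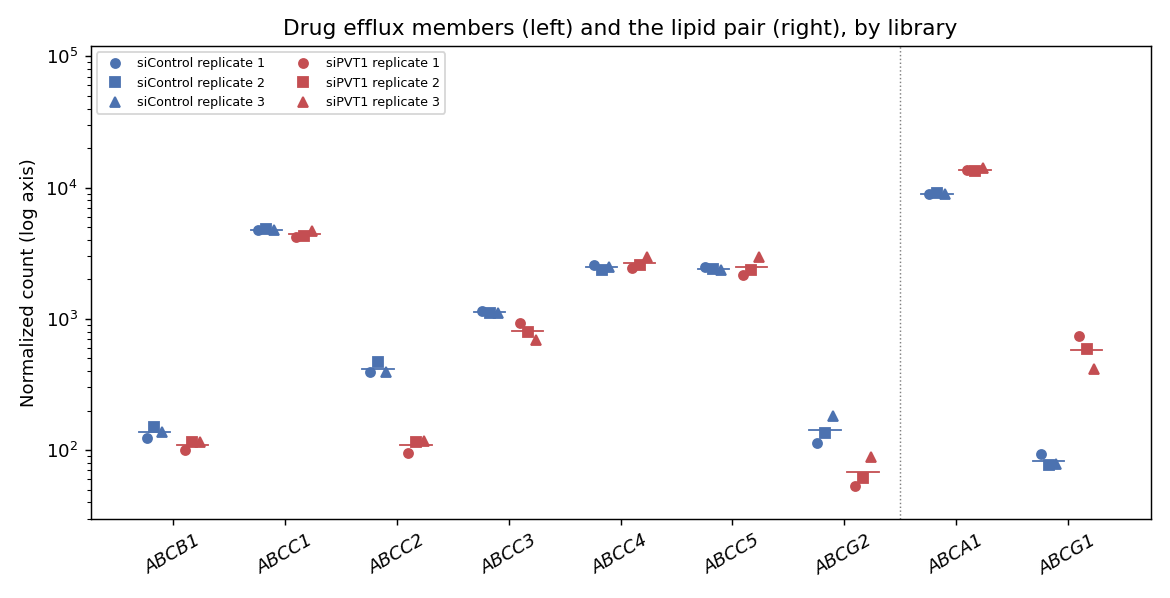
Normalized count of each drug efflux member and of the lipid pair in each of the 6 libraries, on a log axis, with points for the libraries coloured by group. ABCC2 and ABCG2, which were called, and ABCB1, ABCC1 and ABCC3, which were not, separate downward in siPVT1. ABCA1 and ABCG1 separate upward, while ABCC4 and ABCC5 overlap.

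Levels were compared between genes in CPM per kilobase, that is counts scaled by TMM library size and divided by exon length, in which the order of the pumps in siControl was ABCC1 (17.6 ± 0.149, SD, n = 3), ABCC4 (9.22), ABCC5 (6.84), ABCC3 (3.74), ABCC2 (1.71), ABCG2 (0.823) and ABCB1 (0.687). Only ABCG2 and ABCB1 overlapped as neighbours in that order. The length is that of all annotated exons of a gene merged, not of the transcripts expressed, and the order depends on it. ABCC4 and ABCC5 had similar mean normalized counts in siControl (2471 and 2413) and differ in this length (8629 and 11365 bases). In siPVT1 the first 4 places were the same, with ABCC1 at 16.3 ± 0.951 (SD, n = 3), followed by ABCB1 (0.551), ABCC2 (0.450) and ABCG2 (0.388), of which ABCC2 and ABCG2 overlapped. On this scale the 7 pumps summed to 40.5 to 40.9 in siControl and to 35.1, 36.1 and 40.6 in siPVT1 replicates 1, 2 and 3, so under TMM the summed level of replicate 3 lay within the siControl range. With total-count scaling the sums were 42.2 to 44.1 in siControl and 33.2, 34.6 and 38.3 in siPVT1, all 3 below that range. ABCC1 made up 42.8% to 44.4% of that sum in every library, and ABCC2 went from 3.92% to 4.72% in siControl to 1.12% to 1.31% in siPVT1.

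**Figure D3:**
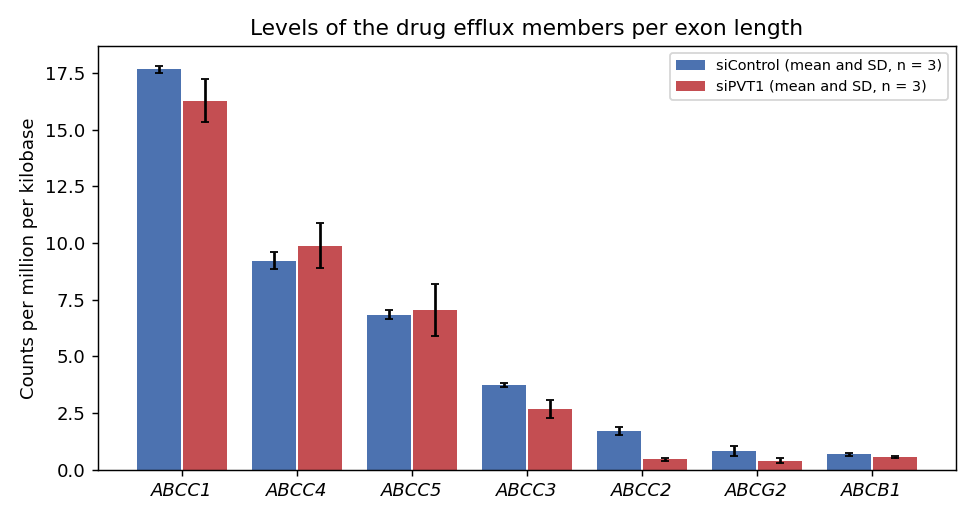
Level of the 7 drug efflux members in CPM per kilobase of exon sequence, as bars from 0 for the mean of 3 libraries per group with SD error bars. ABCC1 is the highest in both groups (17.6 and 16.3), and ABCB1, ABCC2 and ABCG2 all lie under 1 in siPVT1.

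Both members of the lipid pair were higher in siPVT1, ABCG1 6.99-fold and ABCA1 1.54-fold, and of the pair only ABCG1 passed the fold threshold. ABCG1 exports cholesterol to high-density lipoprotein and lies at chr21:42199689-42297244, plus strand. Its normalized counts were 94.0, 76.6 and 78.3 in the siControl libraries and 739, 592 and 415 in the siPVT1 libraries. No siPVT1 library came near the siControl libraries, with replicate 3 the lowest of the siPVT1 group, and the log2 fold change was 2.81 (SE 0.220, adjusted p = 2.07e-05). Over all alternatives it ranged from 2.58 to 2.98.

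ABCA1 passes cholesterol and phospholipid to lipid-poor apolipoprotein A-I and was one of the most abundant members. It lies at chr9:104781006-104928155, minus strand, and its normalized counts were 8896, 9055 and 8859 in the siControl libraries and 13600.1, 13427 and 14148 in the siPVT1 libraries. Replicates were tight in both groups and the groups were far apart, with a log2 fold change of 0.62 (SE 0.052, adjusted p = 3.04e-05). Its level per length was 25.4 ± 0.295 in siControl and 39.0 ± 1.07 in siPVT1 (SD, n = 3, CPM per kilobase). In siPVT1 ABCA1 took the first place of the family from ABCE1, which went from 42.2 to 17.2.

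The liver X receptors bind a DR4 element, a direct repeat written AGGTCA, then any 4 letters, then AGGTCA, and the promoters of members were searched for it because ABCA1 and ABCG1 are their known targets. RefSeq windows of 300 bases (GRCh38.p14, 250 before to 50 after the start) were matched for 35 of the 46 members, ABCG1 not among them. Searched on both strands, the exact element was in 0.0183% of 27305 promoters and in no member. With at most 1 letter off in each 6-letter arm it was in 1.4% of promoters and in 3 members, ABCA1, ABCC6 and ABCD2. The matches of the first 2, of which ABCC6 was called, are shown with the element in capitals on the strand of the gene, where it reads as the reverse complement.
ABCA1: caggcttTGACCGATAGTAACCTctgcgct
ABCC6: cctgtttTCACCTCCCGTGGCCTcactccc
They lie at chr9:104928202-104928231, minus strand, and chr16:16223611-16223640, minus strand. ABCA1 also held an E-box, CACGTG, which is the site of MYC and of several other factors, found in 7.43% of promoters and in 4 members (ABCA1, ABCA9, ABCB6 and ABCF1). The stretch of ABCA1, at chr9:104928285-104928314, minus strand, is shown with the E-box in capitals.
ABCA1: gggccccggctcCACGTGctttctgctgag
Of the 12 called members with a window, 1 (ABCA9) held an E-box.

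The receptors and their other targets were examined as lists. Of the receptors, NR1H2 and NR1H3, which encode the beta and alpha liver X receptors, fell in siPVT1, both by a log2 fold change of −1.08 (adjusted p = 5.30e-05 and 0.000499). NR1H2 had normalized counts of 1159.7, 1068 and 1164 in the siControl libraries and 562, 584 and 457 in the siPVT1 libraries. NR1H3 had normalized counts of 171, 163 and 149 in the siControl libraries and 78.9, 88.3 and 61.9 in the siPVT1 libraries. Neither gene overlapped between groups, and without siPVT1 replicate 3 the values, −0.996 and −0.96, missed the fold threshold. RXRA had −0.32 (adjusted p = 0.00194) and RXRB 0.05 (adjusted p = 0.602, and −0.10 with total-count scaling).

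Of 9 other targets, 8 were tested, 3 rose and 1 fell, which makes 50% called against 21.5% of all genes tested. Their median log2 fold change was 0.73, against 0.0014 over all genes tested. The list was chosen with earlier results of these data known, so these figures do not test whether it differs from other genes. SREBF1, the regulator of fatty acid synthesis, had 1.40 (adjusted p = 1.93e-06), SCD, a fatty acid desaturase, 1.46 (adjusted p = 3.88e-06) and PLTP, which transfers phospholipid between lipoproteins, 1.38 (adjusted p = 2.99e-05). SMPDL3A, a phosphodiesterase, fell by 1.10 (adjusted p = 0.000133). SREBF1, SCD and FASN also answer to the sterol regulatory element binding proteins, so this list is not particular to the liver X receptors. LPCAT3 (0.86, adjusted p = 9.08e-05), FASN (0.59, adjusted p = 0.00319) and MYLIP (0.41, adjusted p = 0.0217) were higher under the fold threshold, the last of them not with total-count scaling or without any 1 siControl library, and APOC1 was too low to be tested. APOE was not past the adjusted p (0.22, adjusted p = 0.777), which rested on siControl replicate 2. Its normalized counts were 19.9, 83.6 and 13.8 in siControl, and without that library it was called as higher (1.42, adjusted p = 0.0168), while its sign turned in 3 of the other fits without 1 library.

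Of 5 genes that supply or receive sterol for efflux, 4 were tested and 1 rose, which makes 25% called, near the 21.5% of all genes tested. NPC1, which releases cholesterol from the lysosome, went from 5870.5, 5778 and 5792 to 19188, 16465 and 13424 normalized counts (log2 fold change 1.49, adjusted p = 2.21e-05), with no overlap. NPC2 (0.70, adjusted p = 8.03e-05) was higher, and SCARB1, the receptor of high-density lipoprotein (−0.54, adjusted p = 0.000304), and SOAT1, which esterifies cholesterol (−0.33, adjusted p = 0.0217), were lower, all 3 under the fold threshold. The adjusted p of SOAT1 was 0.05 or more without siControl replicate 1 or 2 or siPVT1 replicate 2. APOA1, the acceptor of ABCA1, was too low to be tested.

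**Figure D4:**
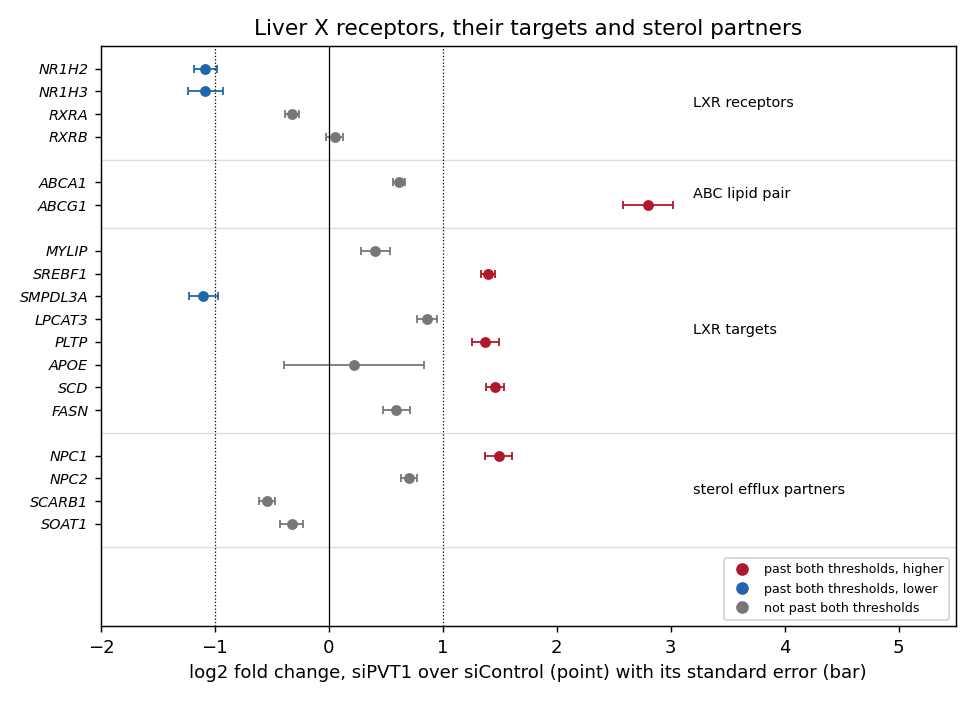
Log2 fold change of siPVT1 over siControl, with bars for the standard error from edgeR, for the lipid pair, the liver X and retinoid X receptors, targets of the liver X receptors and sterol partners. ABCG1 (2.81) and ABCA1 (0.62) lie on the higher side and NR1H2 and NR1H3 (both −1.08) on the lower side.

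Of the 17 members of the family that move lipids, the pair included, 13 were tested. ABCG1, ABCB4, ABCA7 and ABCG4 rose, ABCA9, ABCA12 and ABCA13 fell, and the median log2 fold change was 0.20. That is 53.85% called (30.77% higher and 23.08% lower), against 21.5% of all genes tested (11.8% higher and 9.64% lower). ABCG4, ABCA9 and ABCA12 passed the count filter only through the group in which they were high. ABCB4 flips phosphatidylcholine into bile in the liver and lies at chr7:87401696-87480435, minus strand. It had normalized counts of 27.5, 22.2 and 38.7 in the siControl libraries and 243, 219 and 133 in the siPVT1 libraries, a log2 fold change of 2.74 (SE 0.286, adjusted p = 8.98e-05). The siPVT1 libraries were all far above the siControl libraries, with replicate 3 the lowest of them. Summed with its paralog ABCB1, the log2 fold change was 0.89, under the fold threshold, and the split of reads between the 2 genes is uncertain.

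ABCA7, a phospholipid exporter known as a risk gene of Alzheimer's disease, had normalized counts of 125, 151 and 141 in the siControl libraries and 588, 494 and 366 in the siPVT1 libraries. The siPVT1 libraries did not overlap with siControl, and replicate 3 was again the lowest of them (log2 fold change 1.79, SE 0.178, adjusted p = 6.91e-05). ABCG4, a sterol exporter related to ABCG1 and best known from the brain, had normalized counts of only 2.85, 4.03 and 0.921 in the siControl libraries and 6.66, 9.81 and 13.1 in the siPVT1 libraries. At this low count the filter fixed in advance that the groups did not overlap. The log2 fold change of 1.91 (SE 0.541, adjusted p = 0.0160) was not called by DESeq2 (adjusted p = 0.0525) or without siControl replicate 3 (1.501, adjusted p = 0.0515 in edgeR). ABCG4 was left untested without any 1 of the siPVT1 libraries.

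ABCA13, one of the largest members, had normalized counts of 167, 172 and 171 in the siControl libraries and 52.2, 48.0 and 77.8 in the siPVT1 libraries. The groups were well apart, with siPVT1 replicate 3 the nearest to siControl (log2 fold change −1.51, SE 0.184, adjusted p = 0.000204). ABCA12, which loads lipids into the lamellar granules of skin, had normalized counts of 27.5, 25.2 and 19.4 in the siControl libraries and 5.55, 3.27 and 4.69 in the siPVT1 libraries, again without overlap (log2 fold change −2.38, SE 0.341, adjusted p = 0.000496). Of the siPVT1 libraries only replicate 1 reached 5 normalized counts, so the filter kept ABCA12 because siControl was high. ABCA9 is 1 of 5 related genes, ABCA8, ABCA9, ABCA6, ABCA10 and ABCA5, that lie side by side on chromosome 17. Its counts were 9, 7 and 8 in the siControl libraries and 0, 1 and 2 in the siPVT1 libraries, 24 against 3 in sum, a ratio of 7.37 with an exact 95% interval of 2.24 to 38.3 that covers counting error only, and its fitted log2 fold change was −2.75 (SE 0.646, adjusted p = 0.00669). It was not called in the test against a 2-fold change, and fell under the filter without any 1 of the siControl libraries.

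Of its neighbours in that cluster, ABCA6 (−1.93, adjusted p = 0.0502), ABCA10 (−0.70, adjusted p = 0.235) and ABCA5 (0.00, adjusted p = 0.992) were not called and ABCA8 had at most 3 counts in a library. ABCA6 was called with total-count scaling (−2.07) and without siPVT1 replicate 2, and ABCA10 without siPVT1 replicate 3 (−1.31). Beside ABCA1, the lipid members past the adjusted p alone were ABCA2, a lysosomal sterol transporter (0.93, adjusted p = 6.97e-05), and ABCA3, which packs surfactant lipid (0.20, adjusted p = 0.0277). The adjusted p of ABCA3 was 0.05 or more with total-count scaling and under 5 other alternatives, so that a difference there was not stable.

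ABCC6, whose loss causes the calcification disorder pseudoxanthoma elasticum, had normalized counts of 8.55, 5.04 and 2.76 in the siControl libraries and 22.2, 22.9 and 24.4 in the siPVT1 libraries. Every siPVT1 library was above every siControl library at low counts, and the log2 fold change was 2.07 (SE 0.386, adjusted p = 0.00208). With siControl replicate 3 under 5 normalized counts, only the siPVT1 group met the filter by itself. It lies at chr16:16149565-16223522, minus strand, 6.3 kb from ABCC1. Summed with its near-identical pseudogenes ABCC6P1 and ABCC6P2, which had at most 3 counts in a library, it stayed called.

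ABCC9 encodes SUR2, the regulatory subunit of ATP-sensitive potassium channels. ABCC9 had normalized counts of 883, 885 and 894 in the siControl libraries and 218, 253 and 278 in the siPVT1 libraries. All siControl libraries were close together and far above siPVT1, and the log2 fold change was −1.83 (SE 0.099, adjusted p = 3.75e-06). ABCC12, an ABCC gene of little-known function, had 11, 11 and 16 counts in the siControl libraries and 1, 0 and 0 in the siPVT1 libraries, 38 against 1 in sum, a ratio of 35.02 with an exact 95% counting interval of 5.92 to 1419, and a fitted log2 fold change of −4.70 (adjusted p = 0.000759). ABCC12 was left untested without any 1 of the siControl libraries. Its neighbour ABCC11, 9.8 kb away on the same strand, was too low to be tested, with 17 counts against 2 (ratio 7.83, interval 1.86 to 69.9). ABCC10 was lower under the fold threshold (−0.27, adjusted p = 0.0226), with an adjusted p of 0.05 or more without siControl replicate 1 or 2 or siPVT1 replicate 2.

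ABCE1 splits the ribosome into its subunits after a protein is finished, and was the most abundant member per length in siControl. Its normalized counts were 8406, 7628 and 8576 in the siControl libraries and 2658, 3143 and 4221 in the siPVT1 libraries. No siPVT1 library reached the siControl range, and replicate 3 was the nearest to it. ABCE1 had a log2 fold change of −1.29 (SE 0.153, adjusted p = 0.000171), and of −1.52 without that replicate. ABCF2, a little-studied relative, had normalized counts of 742, 787 and 856 in the siControl libraries and 186, 229 and 355 in the siPVT1 libraries, again without overlap, a log2 fold change of −1.62 (SE 0.208, adjusted p = 0.000271), and −1.96 without siPVT1 replicate 3. ABCF3 was lower under the fold threshold (−0.30, adjusted p = 0.00723) and ABCF1, which takes part in the start of translation, had −0.16 (adjusted p = 0.149, 0.000969 without siPVT1 replicate 3 and 0.0108 with total-count scaling). The median log2 fold change of these 4 was −0.80. In the test against a 2-fold change ABCE1 was not called and ABCF2 was.

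**Figure D5:**
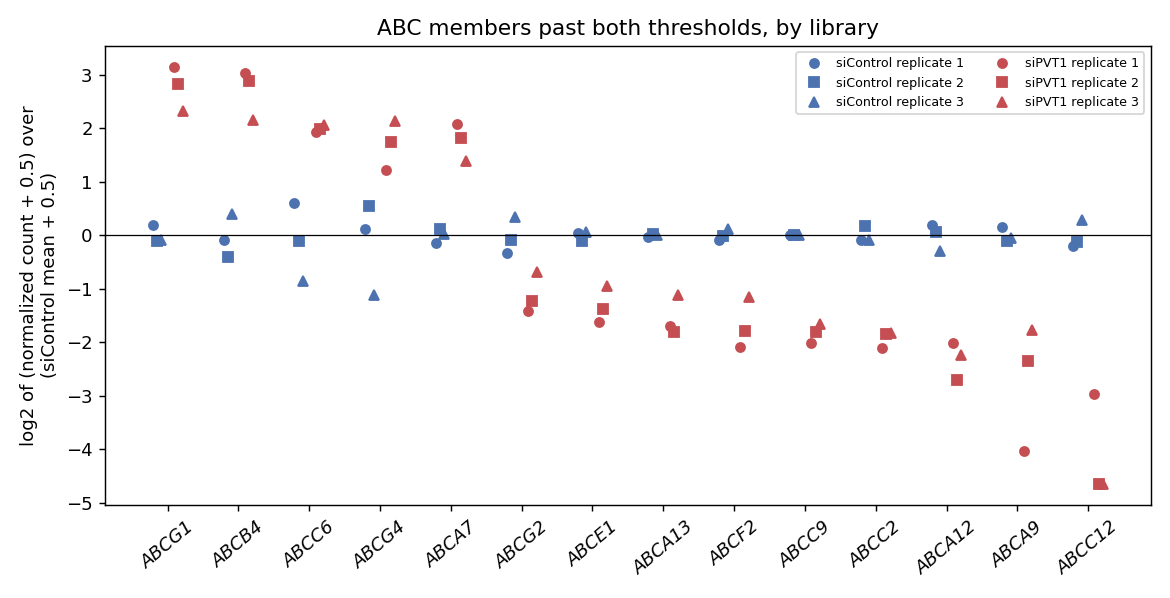
Log2 of the normalized count plus 0.5 over the siControl mean plus 0.5 for the 14 called ABC members, with a point for each of the 6 libraries coloured by group. The siControl points lie around 0, with the widest scatter in ABCG4 and ABCC6, which have few counts. The siPVT1 replicate 3 library is the siPVT1 library closest to the siControl mean in 10 of the 14 members.

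Across the 14 called members, siPVT1 replicate 3 was the closest of its group to the siControl mean in 10 (71.4%), and across all called genes in 59.5%. Of the mitochondrial members, which handle haem and its precursors among other cargo, none of 4 was called. ABCB6, a porphyrin transporter, was higher under the fold threshold (0.62, adjusted p = 0.000557), and ABCB10, which works in haem synthesis, was lower (−0.84, adjusted p = 0.000685). ABCB10 passed both thresholds without siPVT1 replicate 3 (−1.02). ABCB8 had 0.02 (adjusted p = 0.900).

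Of the lysosomal members, ABCD4, which carries cobalamin out of the lysosome, was higher under the fold threshold (0.67, adjusted p = 0.000130), and ABCB9, a peptide transporter, had −0.07 (adjusted p = 0.581). Of the peroxisomal members, which import very-long-chain and branched fatty acids, ABCD3 was lower under the fold threshold (−0.44, adjusted p = 0.000390). ABCD2 was too low to be tested, with 2 to 5 counts in a library. The other untested members were ABCA4, the retinal lipid flippase, with 1 to 12 counts, ABCB11, the bile salt pump, with 1 to 5, ABCB5, ABCA8, ABCG5 and ABCG8 with 0 to 3, and ABCC8 and ABCC13 at 0 in every library. A count of 0 allows up to 3 counts in a library, so expression of ABCC8 and ABCC13 was not detectable at this depth.

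Per exon length, 17 members were under 0.1 CPM per kilobase in siControl, 9 from 0.1 to 1, 15 from 1 to 10 and 5 over 10. Another search of promoters was for the core of the antioxidant response element, TGACNNNGC, the site of the stress factor NRF2, since ABCC pumps are known among its targets. It was in 13.6% of promoters and in 7 of the 35 members (20%), ABCA2, ABCA3, ABCA5, ABCB6, ABCC4, ABCD4 and ABCF1, and in none of the 12 called members with a window. The match of ABCC4, the 1 drug pump with one, is at chr13:95301581-95301610, minus strand, and that of ABCB6 at chr2:219219091-219219120, minus strand, with the core in capitals, in ABCC4 as its reverse complement. In ABCB6 the core overlaps the E-box. Windows for ABCC1, ABCC3, ABCB4 and ABCG1 were not analysed here.
ABCC4: gtctcctcccGCCGCGTCAcccgtcggtcc
ABCB6: cctgggcacgTGACCAAGCcggctctgctt
Such matches are letters in a window and were not tied to binding.

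Members of the family under other names were also measured. CFTR, the chloride channel, fell from 16.1, 9.07 and 5.53 to 1.11, 1.09 and 0 normalized counts (log2 fold change −3.66, adjusted p = 0.00440), a low level in both groups that only the siControl libraries brought past the filter. TAP1 and TAP2, which together bring peptides to the antigen presenting machinery, differed in direction. TAP1 had normalized counts of 946, 818 and 924 in the siControl libraries and 1584, 1322 and 1230.5 in the siPVT1 libraries (0.62, adjusted p = 0.00135), and TAP2 had normalized counts of 2703, 2798 and 2618 in the siControl libraries and 1121, 1338 and 1655 in the siPVT1 libraries (−0.98, adjusted p = 0.000296). Both had groups that did not overlap, and neither passed the fold threshold, though TAP2 did so without siPVT1 replicate 3 (−1.15), without siControl replicate 3 and with total-count scaling (−1.13).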

How the data were processed

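RNA was measured in 6 libraries of SK-OV3 cells, 3 per group. According to the methods and the submitters' processing notes, the authors made libraries with an mRNA kit, aligned 75-base single-end reads to GENCODE v35 (GRCh38.p13) with STAR 2.7.3a and counted them with Salmon 0.14.1. The table they deposited holds estimated counts, rounded to whole numbers, not normalized, with 1 row per symbol. The strand setting is not given in the sources used here, so overlapping genes and close paralogs are uncertain.

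The deposited counts of all 59653 rows were used as given. Genes with at least 5 TMM-normalized counts in at least 3 libraries (19008) were tested with edgeR 4.0.16 (R 4.3.3), with the siRNA as the only term in the model. The study used DESeq2, which was run here as an alternative (1.42.0). Totals ranged from 28383171 to 35059576. The SE is the size of the log2 fold change divided by the root of its F statistic. Tests were checked on simulated counts. Exon lengths and coordinates came from GENCODE v44, and promoters from RefSeq.

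The results of some genes are not reported here. Members, gene lists and motifs were chosen with earlier results of these data known. Named are PVT1, all drug efflux members, ABCA1 and ABCG1, all other members by their result, and of each other list up to 4 genes past both thresholds with the smallest p, with further list genes chosen after their values were seen. Alternatives were other normalizations, filters, thresholds, the replicate number as a block, leaving out each library, and sums with paralogs.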

Additional observations from a re-analysis of the deposited data

How the results depend on the processing

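Of 68 alternative values for the counts of called members and for PVT1, 62 stayed within 1.5 times or on the same side of the thresholds. The count of called drug efflux members was 1 in place of 2 in a test against a 2-fold change. With no fold threshold there were 11 higher members in place of 5, 14 lower in place of 9, and 2 of the lipid pair in place of 1. Leaving out each library in turn gave 4 to 5 higher members, 6 to 11 lower, 1 to 2 drug efflux members and 1 of the lipid pair, and a PVT1 log2 fold change from −0.80 to −0.62. ABCA9 and ABCC12 lose their call when any siControl library is left out because the filter on counts no longer keeps them. Signs turned for ABCC4 with total-count scaling (−0.049) and without siPVT1 replicate 3 (−0.0014, range without 1 library −0.0014 to 0.14), for ABCC5 under the same settings (−0.11 in both, range −0.11 to 0.12), and for ABCB1 when summed with ABCB4 (0.89). The sum of ABCB1 and ABCB4 lay under the fold threshold, which ABCB4 alone passed. Near 0, the sign also turned for ABCA5 in 7 settings (−0.15 with total-count scaling) and for ABCB8 in 3 (−0.13 with total-count scaling and −0.14 without siPVT1 replicate 3).

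The replicate number as a block called the same 5 higher and 9 lower members, 2 drug efflux members and 1 of the lipid pair. The deviations of same-numbered libraries correlated at −0.037, 0.0287 and 0.0023, so the numbers were not taken to pair the libraries. Among genes picked after their values were seen, GSTA1, APOE and EPCAM were highest in replicate 2 of both groups. CDH1 and MUC16 were highest in replicate 2 of siPVT1 only. A source shared by same-numbered libraries was not tested further. With the block, ABCA3 was no longer under an adjusted p of 0.05.

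Depth limits members of a few counts, such as ABCA9, ABCC12, ABCG4 and ABCC6, and 10 members could not be tested. Promoter windows were not analysed here for 11 members. Levels of mRNA say nothing of pump protein or activity, which were not measured in these libraries.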

Other observations

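Conjugating enzymes make the glutathione, glucuronide and sulfate conjugates that the ABCC pumps export. Of 24 examined, 15 were tested, 2 rose and 1 fell, with a median log2 fold change of 0.29, where 21.5% of all genes tested were called and their median was 0.0014. MGST1, a microsomal glutathione transferase, fell from 5471, 4903 and 5294 to 1550.5, 1954 and 2299 normalized counts (log2 fold change −1.43, adjusted p = 4.54e-05, here and below by edgeR), and its relative MGST3 rose from 551, 499.8 and 541 to 1345, 1194 and 1084 (1.19, adjusted p = 2.33e-05). GSTM2 was called as higher (1.36, adjusted p = 0.0423) with overlapping groups, and lost the call under 7 alternatives. GSTP1, an abundant transferase, had 0.19, adjusted p = 0.0457, and 0.05 or more under 8 alternatives.

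Outside the ABC family, 19 of 20 genes of drug transport were tested, 2 rose and 2 fell, with a median log2 fold change of −0.11. That is 21.05% called, near the 21.5% of all genes tested. The organic anion transporter SLCO4A1 went from 1818, 1804 and 1788 to 8775, 6794 and 5051 normalized counts (1.93, adjusted p = 4.43e-05), and SLC22A18 had 2.19, adjusted p = 8.86e-05. SLC47A1, which extrudes organic cations, fell (−1.13, adjusted p = 5.74e-05). Copper transporters that also carry platinum drugs stayed under the fold threshold, among them ATP7B (0.83, adjusted p = 0.000804) and SLC31A1 (0.25, adjusted p = 0.00529, and 0.129 with total-count scaling).

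Of 12 regulators of drug metabolism and efflux, 11 were tested, 1 rose and 1 fell. That is 18.18% called, near the 21.5% of all genes tested. Their median log2 fold change was 0.26, against 0.0014 for all genes tested. FOXO1 rose (1.31, adjusted p = 4.42e-05) and KEAP1, the inhibitor of NRF2, fell (−1.001, adjusted p = 2.64e-05), the latter so near the fold threshold that 4 of the 6 fits without 1 library did not call it. NFE2L2, which encodes NRF2, had −0.22, adjusted p = 0.00785. Of 16 other rows with ABC symbols, such as pseudogenes and antisense genes, 2 were tested. The readthrough row ABCF2-H2BE1 fell (−1.33, adjusted p = 0.000137), but it shares sequence with ABCF2, so its counts are uncertain, and ABCA11P had −0.94, adjusted p = 0.0679. ABCA11P was called as lower with the replicate block (−1.01, adjusted p = 0.0131), with total-count scaling (−1.09, adjusted p = 0.0442) and without siPVT1 replicate 2, and DESeq2 gave an adjusted p of 0.0486.

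Genes of low count stood high in siControl replicate 2, chosen after their values were seen. APOC1 had 36.3 normalized counts in that library against 1.90 and 0 in siControl replicates 1 and 3, and GSTA1 had 74.6 against 9.50 and 1.84. UGT1A10 had 11.1 against 0 in all other libraries. The siPVT1 replicate 2 library was the highest of its group for GSTA1 (22.9), CDH1 (46.9) and MUC16 (633, against 199 and 17.8).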
